A study of Mus musculus with 2 samples.

Results

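The genes described here encode the receptors, a soluble antagonist and a cytokine of the interleukin 1 and interleukin 18 systems. They are Il1rl1, Il18r1, Il18rap, Il1r1, Il1r2, Il1rap, Il1rn and Il18, and their probes were found by gene name. No value entered that rule, but the genes were chosen with earlier results of these data known. Matching the gene name column of the array files gave 13 probes for the 8 genes, out of 55681 noncontrol probes and 27665 named genes. Of the 8 genes, 6 were well above background on both arrays, Il18 exceeded it on the naive-only array alone, and Il18rap was above it on neither. Of these 6, Il1r1 and Il1rn were lower by 2-fold or more on the co-culture array, as were 5.54% of all genes measured on both arrays. Il1rn was only just past 2-fold and fell short of it under some other processing settings. None of the 6 was higher by 2-fold or more, as 7.72% of all measured genes were. The decoy receptor gene Il1r2 had the largest positive difference, at 1.84-fold.

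Interleukin 1 alpha and beta signal through the receptor encoded by Il1r1 together with the accessory protein encoded by Il1rap. Il1r2 encodes a decoy receptor that binds interleukin 1 without signalling, and Il1rn encodes an antagonist that occupies the signalling receptor. Il1rl1 encodes ST2, the receptor for interleukin 33, which also uses the Il1rap protein and is known from type 2 helper cells, regulatory T cells and mast cells. Interleukin 18, the product of Il18, binds the receptor chain encoded by Il18r1, and the second chain, encoded by Il18rap, makes that receptor signal. In helper T cells these receptors pass a cytokine signal through the adaptor MyD88 and are known to strengthen type 1 (interleukin 18), type 2 (interleukin 33) and type 17 (interleukin 1) cytokine production.

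Each value is the brightness of a 60-base probe, so the results turn on what each probe can bind. The first 30 bases of the probes that carry the results are shown, in lower case throughout because no base is singled out. The pairs for Il1rl1 and Il18r1 are given because probes of the same gene disagreed.
Il1rn: aacacaccggaagagccccttatagtcacg
Il18: aggatgaaaatggggataaatctgtaatgt
Il1r1: tacttagatttcaccgtactttctgatggt
Il1r2: ttgatccagtcacaagggaggatctgcata
Il1rl1 probe 1, transcript variant 2: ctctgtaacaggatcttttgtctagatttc
Il1rl1 probe 3, transcript variant 1: gccattgactccttgtgtgttttcttcatg
Il18r1 probe 1, transcript variant 2: gtccaccataatgggacacggtacaacatc
Il18r1 probe 2, transcript variant 1: tgtcacaacagctgtgtgtgaaaacctagc

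The co-culture array held RNA of CD4 T cells sorted 24 h after ovalbumin (OVA, 0.1 mg/mL) was given to a mixture of spleen cells. Naive cells at 1250000 cells/mL were mixed there with the same number of spleen cells that had earlier met the bacterial superantigen TSST-1 (0.1 μg/mL) and that the labels call anergic. The naive-only array held CD4 T cells sorted after the same time and dose of OVA from spleen cells at 2500000 cells/mL without pre-stimulated cells. All cells came from female mice of the strain OVA-TCR-Tg, whose transgenic T cell receptor recognises OVA, and the number of mice and any pooling are not given in the sources used here. The labels do not say that the sort separated naive from pre-stimulated T cells, so the co-culture RNA may come from both. The comparison asks how the presence of the anergic cells changes the T cells' RNA, with 1 array per group. No difference therefore has a replicate check, no test between the groups was possible, and the errors given are technical errors from the scanner software.

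On the co-culture array 45.1% of noncontrol probes were well above background, and on the naive-only array 46.2%. The 14378 genes measured on both arrays are the basis of all counts, and 2-fold or more is the threshold used throughout. The median log2 difference over these genes was -0.05, and their median technical error was 0.20. T cell markers were bright on both arrays. Cd4 had levels of 5.90 on the co-culture array and 5.54 on the naive-only array, and Cd3e, which encodes a CD3 chain, had 6.48 and 6.11 on the same arrays (log2 of the signal over its array's 75th percentile, the scale of every level below). In bulk RNA, fewer cells of a type and less RNA per cell cannot be told apart.

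Of the 6 members above background on both arrays, 2 were lower by 2-fold or more on the co-culture array, against 5.54% of all measured genes. None was higher by that much, against 7.72% of all measured genes. Their median log2 difference was -0.0021, against -0.05 over all measured genes. With 6 genes and 1 array per group, the count describes Il1r1 and Il1rn and says nothing of the family as a unit. The members' levels spanned the range from background to above the array's 75th percentile, as the plot of levels by probe shows.

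**Figure D1:**
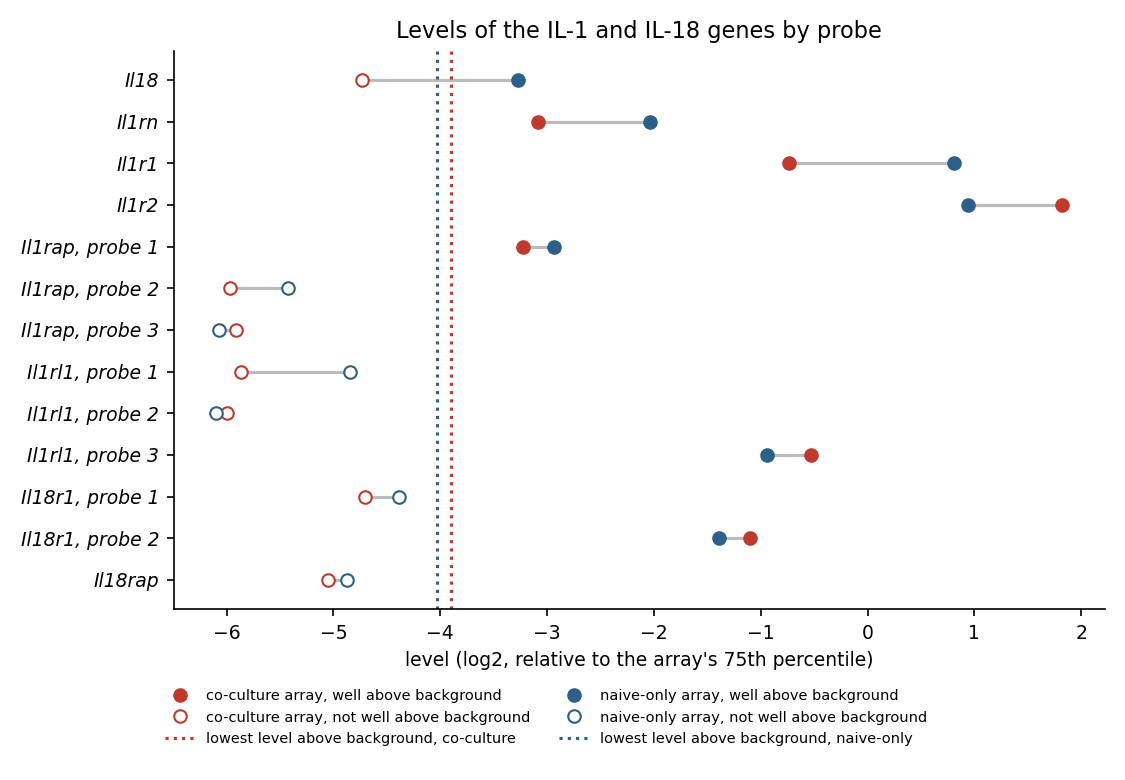
Levels of the 13 probes of the 8 genes on the co-culture array (red) and the naive-only array (blue), as log2 of the signal over the array's 75th percentile, with 1 array per group and no error bars. Filled points were well above background, open points were not, and the dotted lines mark the lowest level called above background on each array (-3.90 for co-culture and -4.03 for naive-only). Of the 13 probes, 6 were above background on both arrays, and Il1r1 and Il1r2 lie apart in opposite directions.

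The soluble antagonist and the cytokine were dim. Il1rn, the interleukin 1 receptor antagonist gene, had a processed signal of 35.5 intensity units on the co-culture array, against 72.8 on the naive-only array, at a probe on chromosome 2 (24205094 to 24205153, mm9). The log2 difference was -1.05 ± 0.31 (technical error), or 2.07-fold lower, which is just past 2-fold. It was just under 2-fold with each array scaled to its median, and -0.49 with normexp background correction. Among 1333 measured genes within 0.5 log2 units of its mean level, 9% were lower by 2-fold or more.

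Il18 had a processed signal of 11.3 intensity units on the co-culture array and 31.0 on the naive-only array, at a probe on chromosome 9 (50389761 to 50389820, mm9). Only its naive-only spot was well above background, so its difference is a bound, at least 1.55-fold lower in co-culture. The bound sets the naive-only level of -3.27 against the lowest level called above background on the co-culture array, -3.90.

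The receptors of interleukin 1 differed in opposite directions. Il1r1, the signalling receptor gene, had a processed signal of 181 intensity units on the co-culture array, against 525 on the naive-only array (chromosome 1, 40372667 to 40372726, mm9). Its log2 difference was -1.55 ± 0.21, or 2.93-fold lower, and it lay between -1.27 and -1.55 under the 8 other settings that measured it. Only 2.57% of measured genes had a lower difference than Il1r1, and among 1379 genes of a like level (within 0.5 log2 units) 8.77% were at least 2-fold lower.

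Il1r2, the decoy receptor gene, had 1067 intensity units on the co-culture array and 576 on the naive-only array (chromosome 1, 40180014 to 40180073, mm9). Its log2 difference was 0.88 ± 0.20, or 1.84-fold higher, short of 2-fold under every setting that measured it (0.81 to 0.93), and 90.7% of measured genes had a lower difference. The Il1r2 difference exceeded the Il1r1 difference by 2.43 ± 0.29 on the log2 scale. These are the highest and the lowest of the measured members, so a wide gap follows from the choice of the pair. The error is technical and does not cover variation between cultures. Array signals are not comparable between probes, so the amount of decoy receptor mRNA relative to signalling receptor mRNA on either array is not known.

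**Figure D2:**
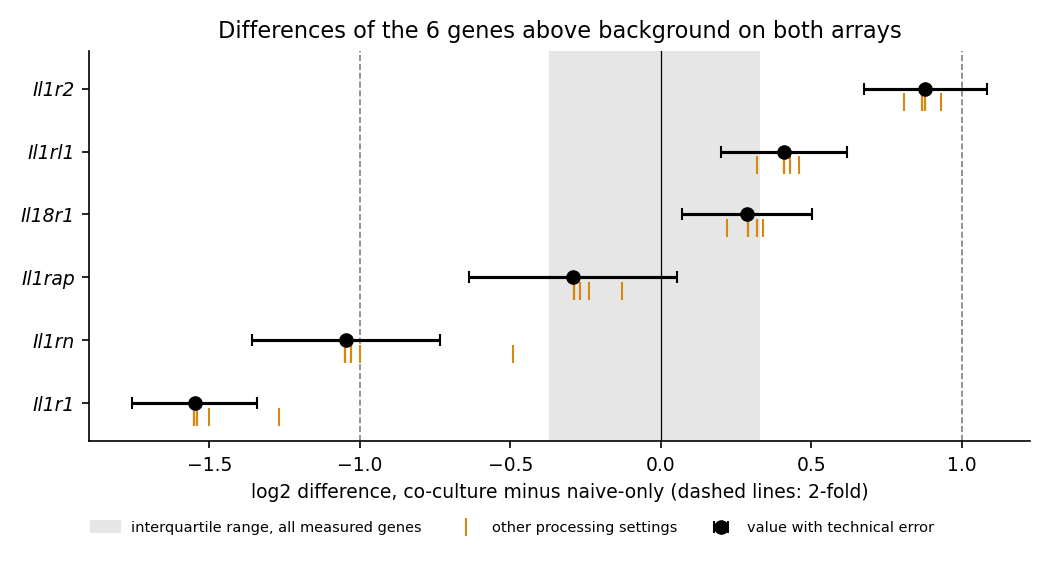
Log2 differences, co-culture minus naive-only, of the 6 genes above background on both arrays, with the technical error of the scanner software as bars (1 array per group). Orange ticks are the values under other processing settings, the grey band is the interquartile range of all measured genes (-0.37 to 0.33), and dashed lines mark 2-fold. Il1r1 lies below the lower line under all of these settings, whereas Il1rn crosses it.

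Il1rap, the accessory chain shared by the receptors for IL-1, IL-33 and IL-36, was read by 3 probes on chromosome 16. The probe for transcript variant 2 (26701498 to 26701557, mm9) had 32.3 intensity units on the co-culture array and 39.2 on the naive-only array, a log2 difference of -0.29 ± 0.35, smaller than its technical error. The probe for transcript variant 1 gave 4.80 and 6.95 intensity units on the same arrays and the probe named for an Ensembl transcript gave 5.02 and 4.45, and neither was well above background on either array. The gene is known to encode a membrane and a soluble form. Only the signal of the variant 2 probe was measurable here, and which form that probe reads was not tested. The difference of -0.29 may therefore not describe the membrane chain, and the variant 1 transcript has no measured difference.

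Il1rl1, the ST2 gene, was also read by 3 probes, and they disagreed. Probe 3 had 209 intensity units on the co-culture array and 156 on the naive-only array (chromosome 1, 40522187 to 40522246, mm9), a log2 difference of 0.41 ± 0.21, or 1.33-fold higher. Probe 1, for transcript variant 2, gave 5.18 and 10.4 intensity units on the same arrays, and probe 2, which like probe 3 is labelled transcript variant 1, gave 4.73 and 4.37. Neither was well above background on either array. The value of the gene thus rests on probe 3 alone.

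The full 60 bases of probe 3 were found in the RefSeq promoter window of the neighbouring gene Il18r1 (build GRCm38.p6, 250 bases before to 50 after a start), on the same strand. They lie at chr1:40465342-40465401 of that build, where the annotated end of Il1rl1 is at 40465418 and the first annotated start of Il18r1 at 40465552. The end of the probe is therefore 151 bases before that start. Of 36743 named probes on the array, 175 (0.476%) matched a promoter window of a gene other than their own, and probe 3 was the only one of the 13 member probes that did. Whether transcripts of Il1rl1, of Il18r1 with an earlier start, or of both gave the signal of probe 3 was not tested.
The 133 bases between the annotated end of Il1rl1 and the start of Il18r1 are shown because they are all that parts the genes (RefSeq, GRCm38.p6, plus strand, chr1:40465419-40465551, with no base singled out).
Between Il1rl1 and Il18r1: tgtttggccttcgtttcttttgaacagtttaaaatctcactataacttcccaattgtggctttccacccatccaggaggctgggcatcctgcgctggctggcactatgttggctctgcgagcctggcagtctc

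The chains of the interleukin 18 receptor gave small differences or none that could be measured. Il18r1, the ligand-binding chain, was read by 2 probes. Probe 2, for transcript variant 1 (chromosome 1, 40557541 to 40557600, mm9), had 140 intensity units on the co-culture array and 114 on the naive-only array, a log2 difference of 0.29 ± 0.22, or 1.22-fold higher. That is within the interquartile range of all measured genes. Probe 1, for transcript variant 2, gave 11.5 and 14.3 intensity units on the same arrays and was well above background on neither. Il18rap, the second chain, gave 9.09 intensity units on the co-culture array and 10.2 on the naive-only array (chromosome 1, 40605729 to 40605788, mm9), also not well above background. A difference in Il18rap was thus not detectable here.

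Of the 8 genes, 5 lie in the receptor gene cluster of chromosome 1, where the probes run over 426 kb in the order Il1r2, Il1r1, Il1rl1, Il18r1 and Il18rap. The directions were mixed, with Il1r1 the one measured gene of the cluster that was 2-fold or more lower. Il1r2 was at 0.88, Il1r1 at -1.55, and Il1rl1 probe 3 and Il18r1 probe 2 at 0.41 and 0.29. Between Il1r1 and Il1rl1 lies Il1rl2, the IL-36 receptor gene, whose single probe was at -1.10 on the co-culture array and -6.23 on the naive-only array. Only the co-culture spot was well above background, and its level was at least 7.61-fold higher (log2 bound 2.93). The flanking kinase gene Map4k4, named for its position after its values were seen, differed by -0.01 and 0.26 at its probes.

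**Figure D3:**
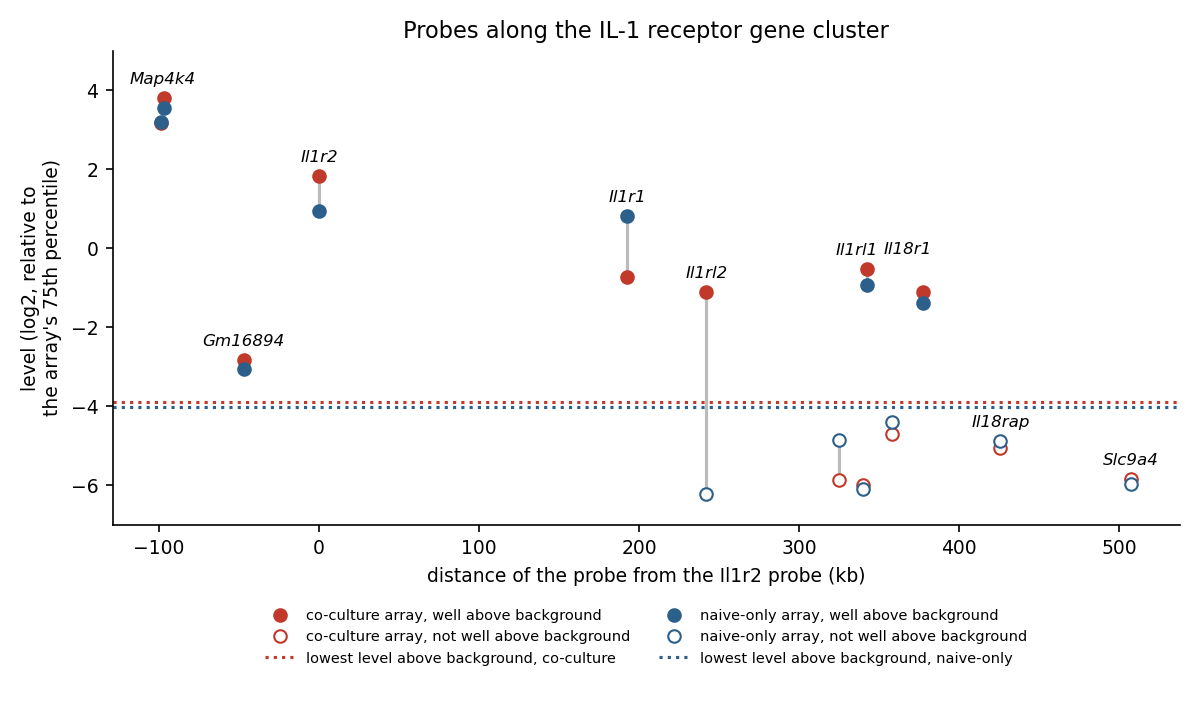
Levels (log2 of the signal over the array's 75th percentile) of named probes along the receptor gene cluster, against the distance of each probe from the Il1r2 probe in kb, for the co-culture array (red) and the naive-only array (blue). Filled points were well above background, open points were not, and dotted lines mark the lowest level above background. Il1r2 and Il1rl2 are higher and Il1r1 lower on the co-culture array, and the unlabelled open points between Il1rl2 and Il18rap are the other probes of Il1rl1 and Il18r1.

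Other genes of the family were read from lists. Each list count below stands against 7.72% of all measured genes at least 2-fold higher and 5.54% lower. Of 11 ligand and soluble inhibitor genes on the array, Il1rn and Il18 included, 4 were above background on both arrays, 3 of them were lower by 2-fold or more and 0 higher, and their median was -1.17. With normexp the count was 1, Il1b alone, and the median -0.76, and with median scaling the count was 2. Il1b, which encodes interleukin 1 beta, was at -0.75 on the co-culture array and 2.20 on the naive-only array, a log2 difference of -2.96 ± 0.21. It was printed in 10 spots, which ranged from -0.92 to -0.67 on the co-culture array and from 2.10 to 2.28 on the naive-only array, without overlap. These repeats measure spot noise only. Il1a, which encodes interleukin 1 alpha, was at -1.29 ± 0.22 (-0.85 with normexp), and Il18bp, whose product binds and neutralises interleukin 18, at -0.92 ± 0.21. Il33, the ST2 ligand gene, did not reach the background call on either array, and neither did the 4 genes of the IL-36 group, which the array names Il1f5, Il1f6, Il1f8 and Il1f9, or Il1f10.

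Cells other than T cells also make these cytokines, and several of their markers were lower on the same array. Of 8 measured B cell markers, 8 were lower by 2-fold or more, and their list had a summed scaled level of 8.63 on the co-culture array and 37.3 on the naive-only array (in units of the array's 75th percentile). Of 8 macrophage and monocyte markers, 3 were at least 2-fold lower, Mpeg1 (-2.75), Cd14 (-1.71) and Lyz2 (-1.12), and 0 higher, with sums of 17.5 on the co-culture array and 22.2 on the naive-only array. Without Itgam, the brightest gene of that list, the sums were 5.99 and 13.3 on the same arrays. Fcgr1 of that list was well above background on neither array. Of 5 measured dendritic cell markers 2 were lower, Fscn1 (-4.56) and Flt3 (-2.87), and Ccl22, above background on the naive-only array alone, had a log2 bound of -4.46 (at least that much lower). The sums of that list were 151 on the co-culture array and 171 on the naive-only array, nearly all from Siglech, and 0.633 and 7.36 on the same arrays without it. Itgax (-0.46), Zbtb46 (-0.86) and Siglech (-0.12) were within 2-fold, and Xcr1, Clec9a and Cd209a of that list were well above background on neither array. Neutrophil markers had sums of 155 on the co-culture array and 119 on the naive-only array, mostly from Csf3r. Without Csf3r these sums were 32.5 and 15.5 on the same arrays. Of 6 measured, 1 was higher, Ly6g (5.80), and 1 lower, Camp (-1.51), while Mpo was at least 3.95-fold higher, Ngp at least 2.89-fold lower and Cxcr2 not well above background. Natural killer markers had sums of 76.9 on the co-culture array and 28.1 on the naive-only array, nearly all from Gzma, and 3.29 and 6.99 on the same arrays without it. Of 4 measured, Gzma (1.80) was higher and Tyrobp (-1.50) and Fcer1g (-1.25) lower. Klrd1 was at least 4.62-fold higher, Klrk1 at least 2.67-fold higher and Ncr1 at least 2.38-fold lower. CD8 T cell markers had sums of 0.641 on the co-culture array and 0.770 on the naive-only array (0.224 and 0.157 without Cd8b1), with 0 of 2 past 2-fold. The T cell list had sums of 858 on the co-culture array and 805 on the naive-only array (572 and 607 without Cd2), with 0 of 8 past 2-fold. The single measured erythroid marker, Hba-a1, was at -1.09, and the single measured platelet marker, Pf4, at 1.14. The part of these cells in the values of Il1b, Il1a, Il1rn, Il18 and Il1r1 was not tested.

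Of 10 receptor genes, 6 of the 8 genes described here among them, 6 were above background on both arrays, with 1 at least 2-fold higher, 1 lower (Il1r1) and a median of 0.35. The higher gene was Sigirr, which encodes an inhibitory receptor of the family. It was at 4.60 on the co-culture array and 3.27 on the naive-only array, a log2 difference of 1.33 ± 0.20, or 2.52-fold higher. Il1rapl1 and Il1rapl2 were well above background on neither array.

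Genes listed for signalling below the receptors differed little. Of 22 measured genes out of 24, 1 was at least 2-fold higher, 1 lower, and the median was -0.18. The higher gene was Tirap (1.48 ± 0.20), which encodes an adaptor known from Toll-like receptor signalling rather than from the receptors described here. The lower was Irak3 (-1.47 ± 0.22, or -0.96 with normexp), which encodes a kinase-like inhibitor of the pathway. Myd88, the adaptor gene, was at -0.76 ± 0.20, the kinase gene Irak4 at 0.25 ± 0.21 and the ubiquitin ligase gene Traf6 at -0.17 ± 0.20. The other probes of Traf6 gave -1.21 and -0.28.

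Interleukin 1 beta and interleukin 18 are made as precursors that caspase 1 cuts in inflammasomes. Of 14 genes of these complexes and their regulation, 10 were measured, with a median of 0.39. The redox regulator gene Txnip was higher at 1.13 ± 0.20, Mefv, which encodes pyrin, was lower at -1.41 ± 0.29 (-0.69 with normexp), and the other 8 were within 2-fold. Casp1 itself stood at -0.08 ± 0.20. Nlrp3, which encodes an inflammasome sensor, was well above background on neither array.

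**Figure D4:**
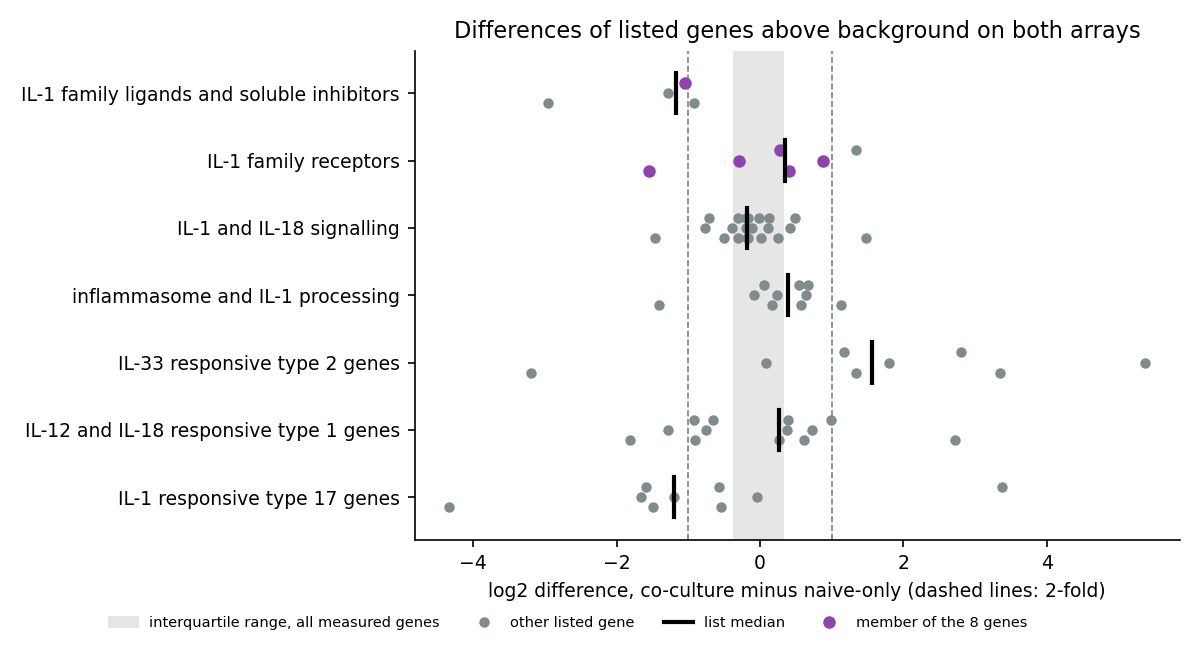
Log2 differences, co-culture minus naive-only, of listed genes above background on both arrays, 1 point per gene, with members of the 8 genes in purple and list medians as black bars. The grey band is the interquartile range of all measured genes and dashed lines mark 2-fold. Type 2 genes lie mostly to the right (median 1.57), type 17 genes (median -1.20) and ligands (median -1.17) mostly to the left, and signalling genes near 0 (median -0.18).

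Genes of the helper programmes that these cytokines are known to strengthen are given by programme. Of 8 measured type 2 genes, linked to interleukin 33, 6 were at least 2-fold higher and 1 lower, with a median of 1.57. The higher genes were Il4 (5.37), Pparg (3.35, or 2.47 with normexp), Maf (2.80), Il5 (1.80, or 1.03 with normexp), the lineage factor gene Gata3 (1.33 ± 0.20) and Il13 (1.17), and the lower was Il9 (-3.19). Another 4 genes of that list were well above background on neither array. Il1rl1 probe 3 was at 0.41 on the same arrays. Mast cell and basophil markers, a list for other ST2-bearing cells, had summed levels of 0.863 on the co-culture array and 2.55 on the naive-only array. Of 3 measured there, Kit (-3.13) and Hdc (-1.28) were at least 2-fold lower and 0 were higher by that much, with Tpsb2 at 0.53. Mcpt8, above background on the naive-only array alone, was at least 1.46-fold lower. Fcer1a, Ms4a2, Cpa3, Mcpt4 and Gata2 were well above background on neither array.

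Of 13 measured type 1 genes, linked to interleukin 12 and interleukin 18, 1 was at least 2-fold higher, Cxcr6 (2.73), and 2 lower, Gadd45b (-1.81) and Ccl3 (-1.28), with a median of 0.27. With another scaling, normexp or the median of probes, the higher count was 2. Hlx was measured in co-culture alone, at least 3.76-fold higher. Ifng, the signature type 1 cytokine gene, was at 0.99 ± 0.20, and past 2-fold with median scaling (1.04), quantile normalization (1.07) and the deposited value table (1.07). The lineage factor gene Tbx21 was at -0.76 ± 0.20, Stat4 at -0.66 ± 0.20 and the interleukin 12 receptor gene Il12rb2 at 0.73 ± 0.20, or 1.21 with normexp and 1.01 as the median of its probes. The other probe of Il12rb2 gave 1.30. Il18r1 probe 2 was at 0.29 on the same arrays.

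Of 9 measured type 17 genes, linked to interleukin 1, 5 were at least 2-fold lower and 1 higher, with a median of -1.20. The lower genes were Il22 (-4.33), Ccr6 (-1.66), Rora (-1.58), Nfkbiz (-1.50) and Ahr (-1.20). Il17a, the signature cytokine gene of the programme, was higher at 3.38 ± 0.20. Il1r1 was at -1.55 on the same arrays. With 2 arrays, no relation between a receptor and the genes of a programme can be measured.

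Regulatory T cells are known to carry the decoy receptor and ST2. Of 7 measured regulatory T cell markers, 1 was at least 2-fold higher, Ikzf2 (1.03), and 0 were lower. Gpr83, above background on the naive-only array alone, was at least 3.75-fold lower, and the probes of Tnfrsf9 disagreed, at -0.09 and 3.21. Foxp3, the defining factor gene, was at -0.23 on the co-culture array and 0.17 on the naive-only array, a log2 difference of -0.39 ± 0.21. The summed level of the list, mostly that of Il2ra, was 243 on the co-culture array and 181 on the naive-only array. Without Il2ra it was 39.6 and 38.8 on the same arrays. The part of these cells in the Il1r2 and Il1rl1 values was not tested.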

How the data were processed

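Both arrays were single-colour Agilent arrays of Cy3-labelled cDNA, amplified per the labels' protocols with the Ovation RNA Amplification System V2, which can alter relative transcript levels. The software that read the spot intensity was Feature Extraction, in version 10.7.1.1 per the file headers and 9.5.1.1 per the submitters' processing notes. The processed intensity is background-subtracted, per the file headers. The deposited value table holds intensity that the authors normalized, in a way not given in the sources used here. The software's calls (other columns) are 0 or 1, per the file headers.

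From the deposited processed signal, log2 values were averaged over the spots of each probe and set relative to the 75th percentile of that array (301.3 intensity units for co-culture and 299.4 for naive-only). Each difference is co-culture minus naive-only. A gene took its brightest probe and counted as measured where the software called that probe well above background on both arrays. The technical error joins the error estimates that the software gave for each array. A gene above background on 1 array got a bound, as described for Il18, and bounds leave out the technical error. No member spot was marked as an outlier and none was saturated. The number of arrays limits the precision. Names came from the array files, updated through RefSeq accessions for 27235 of 36743 named probes, and positions follow the files' build, mm9. Exon and UTR annotation was not used here.

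The members, 7 pathway lists and 11 marker lists were chosen with earlier results of these data known. All members are named, and of each pathway list up to 6 genes past 2-fold in each direction plus a set of genes named whatever their value, of which 1 is not reported here. Counting and scaling were tested on simulated data. Python 3.11.15, numpy 2.4.6, pandas 2.3.3, matplotlib 3.10.9, R 4.3.3 and limma 3.58.1 (normexp, offset 50) were used. Another 9 settings were tried.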

Additional observations from a re-analysis of the deposited data

Results flagged for a closer look

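A probe for a long noncoding RNA region, not used in any comparison, gave a signal between Map4k4 and the receptor genes. It lies on chromosome 1 at 40114351 to 40114410 (mm9), 65.7 kb from the Il1r2 probe. It was at -3.79 on the co-culture array, just above background, and at -6.32 on the naive-only array, not above background. The log2 bound is 0.24 (at least 1.18-fold higher), with technical error left out. The other 3 probes for long noncoding RNA regions lie directly beside it, starting at 40113672, 40113913 and 40114161 (mm9). These neighbours were not well above background on either array, so the signal rests on 1 probe.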

How the results depend on the processing

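No paired analysis was possible because each group has 1 array. The count of members at least 2-fold lower was 2, against 5.54% of all measured genes. It fell to 1 with median scaling (5.11% of all measured genes) and to 1 with normexp background correction (3.68%), in both cases without Il1rn. With normexp, Il1r1 was at -1.27 and Il1rn at -0.49. The remaining 46 of 48 values of member differences under other settings stayed within the technical error of the main value. With a less strict detection call (7.6% of all genes lower) or no filter on dim probes (7.79%), 3 members counted as lower. The added member was Il18, whose co-culture signal is not well above background, and its bound of 1.55-fold does not reach 2-fold. With only the measured genes above their median level, no member was left. In that setting 5.05% of 7189 measured genes were at least 2-fold higher and 2.68% lower. The pathway genes other than the 8 members at least 2-fold higher numbered 5 there, against 11, and those lower 3, against 12. The type 1 median was -0.19, against 0.27, the type 2 median 0.63, against 1.57, and the type 17 median -0.30, against -1.20. With no filter, the ligand list median was 0.09, against -1.17, as 7 dim genes entered. The type 2 median without a filter was 0.76, with 6 genes at least 2-fold higher and 3 lower. Of the members and pathway genes past 2-fold, none changed sign under these settings. Dim signals limit Il18, Il18rap, Il1rn and Il1rap most, and biological variation between cultures cannot be measured with 1 array per group.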
